A study of Mus musculus with 2 samples.

Results

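Of the 854 cells in the library of pyrvinium-treated organoids, 245 (28.7%) held 0 counts of the phosphatase gene Dusp4. A barcode was kept as a cell above a minimum of total counts, and the last one kept had 13154 counts and the first one not kept 13085. These Dusp4-negative cells were set against the 358 cells (41.9%) of the same library with at least 1 Dusp4 count per 10000 counts of the cell, called Dusp4-positive. The other 251 cells (29.4%), with a Dusp4 count but less than 1 per 10000, are called intermediate. The groups were chosen by a measured transcript of the same cells, so every difference between them is a description, with no test.

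Both libraries of the series came from Meta4, a line of dysplastic organoids from mouse stomach corpus that carry the driver Mist1-CreERT2Tg/+ and the conditional allele LSL-K-ras(G12D)Tg/+. An inducible Cre recombinase driven by Mist1, a gene of chief cells and other secretory cells, switches on this allele, and the labels give induction of dysplasia for both libraries. Treatment lasted 1 day and was either pyrvinium, a drug used against intestinal worms, or its solvent DMSO. It ended before the organoids changed shape, to look for the subpopulations that pyrvinium acts on. Each treatment has 1 library from 1 organoid line, so no value has a replicate check and intervals (95%, exact) cover counting error only.

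Dusp4 encodes a nuclear dual-specificity phosphatase that removes phosphates from the kinase ERK. Its transcription is itself raised by ERK signalling and by several kinds of cell stress, so the gene is read as part of a feedback loop. In gastric epithelium with activated Ras, the Raf-MEK-ERK cascade is the pathway that this loop limits.

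Dusp4 was unevenly spread over the pyrvinium cells. The Dusp4-positive cells had a median of 1.90 Dusp4 counts per 10000 and a highest value of 8.34, and their median Dusp4 count was 7. Just outside the limits lay 134 cells with exactly 1 Dusp4 count, at most 0.757 per 10000, and the highest intermediate cell was at 0.994 against 1.01 for the lowest Dusp4-positive cell. A count of 0 allows 2.29 counts per 10000 at that minimum (3 counts of the total), so a shallow Dusp4-negative cell is not shown to lack the transcript. The share of Dusp4-negative cells was 38.2% of 225 cells of up to 20000 counts, 31.9% of 185 cells up to 30000, 24.8% of 105 cells up to 40000 and 21.8% (exact binomial interval 17.5 to 26.6) of 339 cells above 40000. In the deepest of these classes 0 counts allow less than 0.75 per 10000, below the lower limit of the Dusp4-positive cells.

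**Figure D1:**
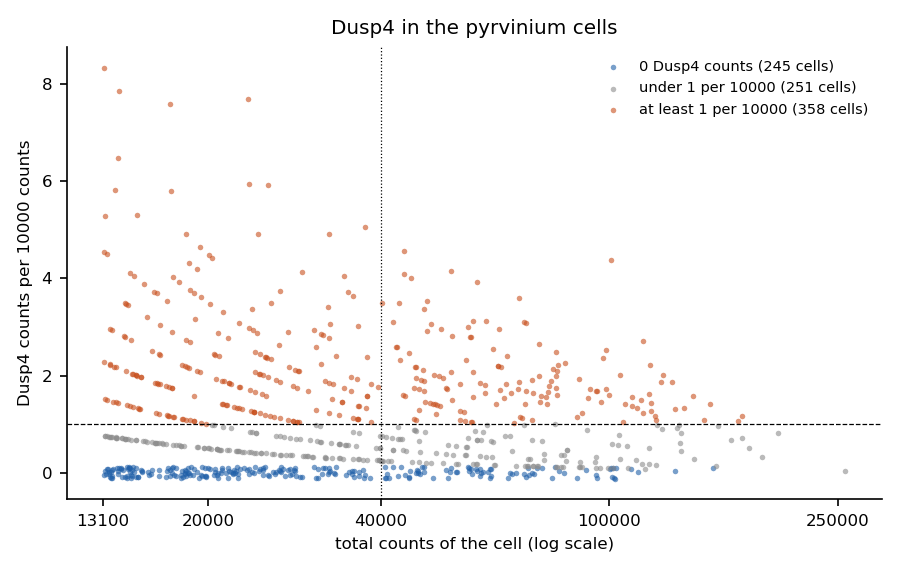
Dusp4 counts per 10000 counts against total counts for each of the 854 pyrvinium cells (horizontal log scale, points at 0 spread vertically for display). Cells at 0 (245) are found at all depths up to 151618 counts; the dashed line marks 1 per 10000 and the dotted line 40000 counts.

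The Dusp4-negative cells were shallower, with a median of 24972 counts against 31620.5 in Dusp4-positive and 39899 in intermediate cells. The comparison of negative with positive cells was therefore repeated in cells of up to 40000 counts, called the shared range. It held 171 negative cells (median 19824) and 215 positive cells (21265). Ratios to DMSO cells, within the DMSO library and within or outside clusters used all kept cells only. The DMSO library gave 1204 cells at the same threshold (median 23131.5), and the libraries shared 0 cell barcodes. Mitochondrially encoded transcripts made up 2.12% of the counts in negative, 1.60% in intermediate and 1.39% in positive cells, and 2.50% in DMSO cells. Ribosomal protein genes took 28.5%, 29.5%, 30.9% and 25.2%. Cells scored as S phase were 17.1%, 12.7%, 10.3% and 32.5%, and cells scored as G2M 17.1%, 23.9%, 16.8% and 28.7%. The part of depth, mitochondrial share and cell cycle in the differences below was not tested beyond the settings named. Barcodes of 100 to 500 counts, which mostly hold free RNA, had Dusp4 at 109.8 CPM (counts scaled to a common total), close to the 100.6 CPM of all pyrvinium cells and above the 12.2 CPM of DMSO cells.

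Markers of other cell types stayed low in all groups. The chief and parietal list summed to 10.6 CPM in negative and 6.09 CPM in positive cells with 4 of the 10 genes found in the files at 0 in each, and to 15.5 CPM in DMSO cells. The 12 enteroendocrine genes summed to 3.93, 4.15 and 3.69 CPM in the same order. Fibroblast and muscle genes (12 listed) reached 30.1, 26.1 and 31.9 CPM and the 9 endothelial genes 66.1, 60.8 and 47.9 CPM. The 14 immune cell genes summed to 16.9, 45.2 and 23.5 CPM. Of those, Cd68, a lysosomal gene of macrophages that other cells also express, gave 11.1 CPM in negative and 41.2 CPM in positive cells.

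The split by Dusp4 followed a split of the pyrvinium cells into clusters that were built without Dusp4. Clusters 3 and 4 together held 315 cells, among them 203 of the 245 negative cells (82.9%), 105 intermediate cells (41.8%) and 7 of the 358 positive cells (1.96%). Cluster 3 (178 cells) was led by Angptl4, Tuba1a, Pthlh, F3 and Cldn2, and cluster 4 (137 cells) by Creb3l4, Ttr, Kcne3, Acot1 and Spdef. Summed Dusp4 was at 13.9 CPM in cluster 3 and 10.9 CPM in cluster 4. Both lie near the level of DMSO cells and near the 10.98 CPM that 10% of free RNA would add. In cluster 0, led by Itln1 and Mmp7, Dusp4 was at 208 CPM, in cluster 1, led by Cnfn and Smim1, at 146 CPM, and in cluster 2, led by mitotic genes such as Kif22 and Ccnb1, at 106 CPM. Negative cells made up 61.8% of cluster 3 (exact binomial interval 54.2 to 69.0), 67.9% of cluster 4 (59.4 to 75.6), 15.8% of cluster 2, 8.06% of cluster 1 and 3.42% of cluster 0. Of the 42 negative cells outside clusters 3 and 4, 39 lay in the shared range, and their median depth was 18623 counts.

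**Figure D2:**
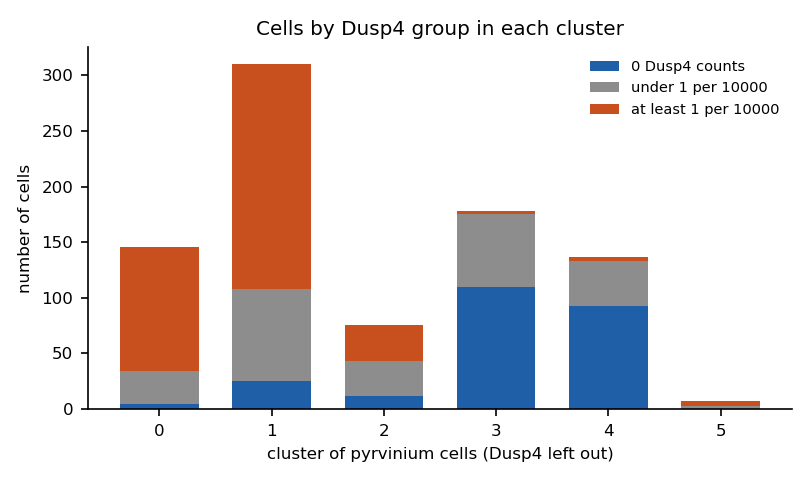
Number of pyrvinium cells of each Dusp4 group (stacked bars) in each of the 6 clusters. Clusters 3 and 4 hold 203 of the 245 cells with 0 Dusp4 counts and 7 of the 358 cells with at least 1 per 10000.

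Within clusters 3 and 4 the negative cells were close to their neighbours with a Dusp4 count. The 203 negative cells and the other 112 cells of these clusters differed by 1.5-fold or more in 38 genes upward and 36 downward of 6986 compared. Of those 112, 105 were intermediate and 7 positive cells, so this is not the comparison of negative with positive cells. Cells of a cluster had also been grouped for being alike. How far depth or free RNA set which of them had a Dusp4 count was not tested. Cldn2 was at 130.01 CPM in the negative and 128 CPM in the other cells, Cdkn1a at 536 and 523 CPM, and the cholesterol gene Cyp51 at 240 and 209 CPM. Kcne3 was among the few with a difference, at 63.6 and 36.4 CPM, a log2 ratio of 0.81. Clusters 3 and 4 held 82.9% of the negative and 1.96% of the positive cells. The differences between negative and positive cells that follow are thus differences between clusters to a large extent, and the clusters were built from the same genes. Outside clusters 3 and 4, with 42 negative and 351 positive cells, 724 genes (11.4%) were higher and 666 (10.5%) lower of 6341 compared. The list counts outside clusters 3 and 4 given below are to be read beside these shares. A total of 86 genes among those considered for the text passed 1.5-fold in all cells. Of these, 33 did so in the same direction outside clusters 3 and 4, and 28 had the other sign. Of these 28, 7 passed 1.5-fold in that other direction, namely Areg, Ereg, Erbb2, Etv5, Xbp1, Cyp1b1 and Psca. In these negative cells Erbb2 and Cyp1b1 were both at 3.31 CPM and Etv5 at 8.83 CPM, so their turn rests on few counts. Intervals were not computed for this setting. Ddit3 (252.7 and 525 CPM) and Gdf15 (649 and 1174 CPM) were lower in these negative cells too, but Areg was higher, at 639 and 408 CPM.

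Across all cells, 1505 of 6928 genes with at least 10 CPM in either group (21.7% of the genes compared) were at least 1.5-fold higher in Dusp4-negative than in Dusp4-positive cells, and 331 (4.78%) at least 1.5-fold lower. In the shared range the numbers were 1271 (18%) and 376 (5.32%) of 7062, with 1070 higher and 241 lower genes found in both. The median log2 ratio of all genes was 0.18, and 0.13 in the shared range. This preponderance of higher genes depends on the scaling. Higher genes were 82.0% of those past 1.5-fold by CPM and 54.9% when scaled by the median of ratios, which moved the median of all genes by -0.24 on the log2 scale. In the shared range these shares were 77.2% and 63.9%. Ratios are therefore best read against the median of 0.18. Intermediate cells were at a level between the other groups for 97.3% of the higher and 91.5% of the lower genes, against 65.8% of all genes.

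The tight junction gene Cldn2, which encodes a pore-forming claudin of leaky epithelia, had the highest interval bound. It was at 119 CPM (interval 112 to 126) in negative, 67.5 CPM in intermediate and 14.8 CPM (12.9 to 16.8) in positive cells, and at 72.2 CPM in DMSO cells. The log2 ratio of negative over positive cells was 3.01, and 2.67 in the shared range. Thinned to 10000 counts, 55.9% of negative and 13.1% of positive cells had a Cldn2 count, 76.7% and 33.8% unthinned, and the lowest cluster had 9.35%. Kcne3, a potassium channel subunit gene of secretory epithelia, was at 60.7, 20.4 and 6.48 CPM in negative, intermediate and positive cells and at 38.4 CPM with DMSO, a log2 ratio of 3.23 (2.63 in the shared range). Pthlh, the gene of a parathyroid hormone-like peptide, was at 27.9, 16.9 and 4.08 CPM and at 97.2 CPM with DMSO. For Pthlh the negative cells thus lay between positive and DMSO cells, while for Cldn2 and Kcne3 they lay above both.

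Other genes among the 15 highest have roles in lipid metabolism, signalling and mucin synthesis. Aacs, a ketone body-using enzyme gene of lipid synthesis, was at 68.7 CPM in negative, 18.1 CPM in positive and 61.0 CPM in DMSO cells. Nr1h2, the gene of a nuclear receptor for oxysterols, was at 36.1, 9.33 and 41.3 CPM. The inhibitor gene of Src kinases, Csk, was at 26.6, 4.602 and 20.9 CPM, and Gcnt3, a mucin glycosylation gene, at 85.3, 25.3 and 66.3 CPM. Ttr, which encodes the thyroid hormone carrier transthyretin, was at 35.0 CPM in negative, 7.65 CPM in positive and 21.7 CPM in DMSO cells. The splicing factor gene Sfpq (43.0, 10.1 and 51.9 CPM) and the tubulin gene Tuba1a (54.3, 11.7 and 66.5 CPM) were also lowest in positive cells. So were Angptl4, Cyp1b1, Tlcd3a and Naa12. Against DMSO cells, the negative cells were higher for Cyp1b1 (log2 ratio 0.91) and lower for Naa12 (-0.75). For Aacs, Nr1h2 and Sfpq the negative cells were within 1.5-fold of the DMSO cells, and the positive cells were lower.

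Dbp, Gdf15, Ddit3 and Atf3 were the first of the 15 lowest genes. Gdf15, a secreted stress cytokine gene, was at 191 CPM (182 to 200) in negative, 604 CPM in intermediate and 1167 CPM in positive cells, and at 102 CPM with DMSO. Its log2 ratio was -2.61, and -1.998 in the shared range. Ddit3, the gene of CHOP, a transcription factor of prolonged stress, was at 94.7, 206 and 520 CPM and at 38.0 CPM with DMSO, a log2 ratio of -2.46 (-2.002 in the shared range). A Ddit3 count was seen in 46.5% of negative, 89.1% of positive and 19.5% of DMSO cells at 10000 counts each, in 73.5% and 95.3% of the pyrvinium cells unthinned, and in 37.1% of the lowest cluster. Negative cells thus held less of both transcripts than positive cells and more than DMSO cells. Free RNA of the pyrvinium library was rich in them, at 747 CPM for Gdf15 and 371 CPM for Ddit3, and how much of the level in negative cells came from it was not measured. With 10% of that profile subtracted the ratios became -3.23 and -3.07.

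The clock genes Dbp and Nr1d1 were at 4.73 and 15.2 CPM in negative, 32.7 and 66.5 CPM in positive, and 4.92 and 15.8 CPM in DMSO cells, so negative and DMSO cells lay side by side. Sat1, which encodes the enzyme that starts polyamine breakdown, was at 138 CPM in negative, 444 CPM in positive and 149.7 CPM in DMSO cells. Kif13a, a kinesin gene, was at 12.0, 76.7 and 9.87 CPM. For Sat1, Kif13a, Mettl18, Babam2, Bex1 and the linker histone gene H1f2 the negative cells were within 1.5-fold of the DMSO cells, and the positive cells were higher. Cldn4, a sealing claudin gene, differed: at 204 CPM it was lower in negative than in positive (547 CPM) and DMSO cells (432 CPM). Mmp7, a matrix metalloprotease gene, was at 140 CPM in negative, 382 CPM in positive and 386 CPM in DMSO cells. Its ratio moved from -1.45 to -2.45 in the shared range. In positive cells Mmp7 was at 931 CPM in cluster 0 and 113 CPM in cluster 1. Within clusters 3 and 4 its direction turned, at 141 CPM in negative cells and 70.4 CPM in those with a Dusp4 count (log2 ratio 1.01). Itln1 and the protease inhibitor gene Slpi were at 9.01 and 8.43 CPM in negative and 39.3 and 27.7 CPM in positive cells. Itln1 was at 124 CPM in the positive cells of cluster 0 and at 1.66 CPM in those of cluster 1.

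**Figure D3:**
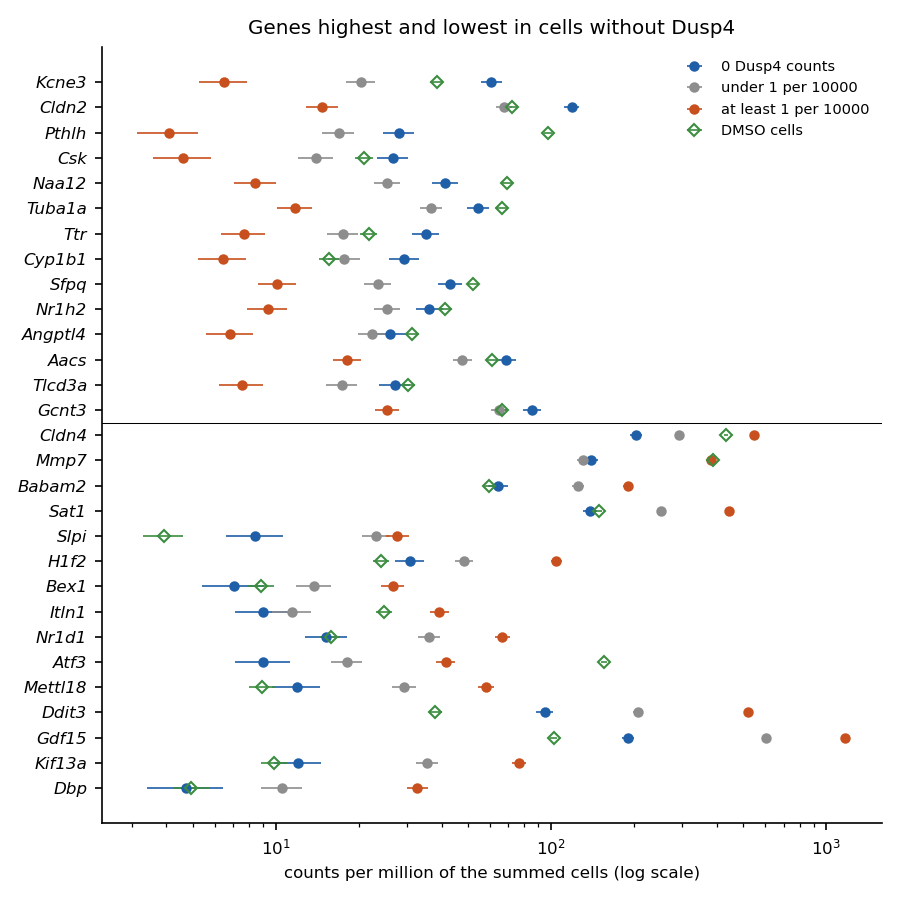
CPM (log scale, exact Poisson 95% intervals for counting error) of 14 of the 15 highest genes and of the 15 lowest genes in Dusp4-negative (blue), intermediate (grey), Dusp4-positive (orange) and DMSO cells (green diamonds). For Cldn2 the blue point is at 119 and the orange at 14.8 CPM; for Gdf15 they are at 191 and 1167 CPM.

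The ERK pathway around Dusp4 was mixed. A list of MAPK cascade genes, from receptors to kinases, is wider than the ERK cascade and includes p38. Of its 22 genes compared, 7 were at least 1.5-fold higher in negative cells and 0 lower (median 0.47, against 0.18 for all genes). These 7 compare with 21.7% of all genes. With the median of ratios 3 were higher and 1 lower, beside 12.1% of all genes higher, and in the shared range 4 were higher, beside 18%, so in both settings the count was near that of all genes. Outside clusters 3 and 4, 2 were higher and 2 lower. Among the receptors, Erbb2 was at 15.4 CPM in negative, 6.29 CPM in positive and 15.5 CPM in DMSO cells, and Met at 11.5, 6.22 and 7.68 CPM. Outside clusters 3 and 4 the direction of Erbb2 turned, at 3.31 CPM in negative and 6.23 CPM in positive cells (log2 ratio -0.91). That level in the negative cells rests on few counts. Of the kinases, Mapk14, the gene of p38 alpha and not of an ERK, was at 15.5 and 6.81 CPM. Mapk3 (ERK1) was at 69.2 and 96.2 CPM, a log2 ratio of -0.48.

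Feedback genes and targets of ERK gave 4 higher and 1 lower of 14, with a median of 0.22, near that of all genes. In the shared range 1 was higher and 2 were lower, and outside clusters 3 and 4, 4 were higher and 2 lower. Dusp6, which encodes the cytoplasmic counterpart of Dusp4 that acts on ERK, was at 20.8 CPM in negative, 24.9 CPM in intermediate, 28.3 CPM in positive and 24.6 CPM in DMSO cells. Its log2 ratio of -0.45 was under 1.5-fold, and outside clusters 3 and 4 it was 0.36. Spry1, an inhibitor of receptor signalling, was at 15.5 and 18.3 CPM, and the transcription factor gene Etv4 at 17.0 and 13.6 CPM. Spred1 was higher in negative cells, at 14.2 and 7.32 CPM, but at 7.72 and 7.28 CPM outside clusters 3 and 4. Etv5 was higher in all cells, at 35.8 and 21.6 CPM, but lower outside clusters 3 and 4, at 8.83 and 21.4 CPM (log2 ratio -1.28). The cell cycle gene Ccnd1, which ERK and Wnt signals raise, was at 220 and 197 CPM. Outside clusters 3 and 4 it was higher in negative cells, at 384 and 197 CPM (log2 ratio 0.96). Of 4 other dual-specificity phosphatases with enough counts, Dusp7 was lower (7.74 and 13.2 CPM) and Dusp28, Dusp11 and Dusp19 were within 1.5-fold. Outside clusters 3 and 4, 0 of the 4 passed 1.5-fold, and Dusp7 had a log2 ratio of 0.22. The ligand Areg, which activates the EGF receptor, was at 146 CPM in negative, 264 CPM in intermediate and 406 CPM in positive cells and at 101 CPM with DMSO. Areg and Ereg were the 2 of 6 EGF-family ligands past 1.5-fold, both lower (beside 4.78% of all genes), with Areg alone in the shared range. Outside clusters 3 and 4 both turned, with log2 ratios of 0.65 for Areg and 0.76 for Ereg. There 2 of the 6 ligands were higher and 1 lower (median 0.22).

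The integrated stress response, the ATF4-led programme that cells start when translation is held back, had a median log2 ratio of -0.08 over 29 genes. Of these, 7 were at least 1.5-fold higher, near the 21.7% of all genes, and 3 lower, and outside clusters 3 and 4 the counts were 3 and 8. Ddit3, Gdf15 and Ppp1r15a were the 3 lower in all cells. Its regulator gene Atf4 was at 239 CPM in negative, 253 CPM in positive and 132 CPM in DMSO cells. Asparagine synthetase (Asns) was at 197, 224 and 98.4 CPM. Cth, which makes cysteine, was at 124, 135 and 27.6 CPM. Slc7a11, the cystine transporter gene, was at 93.5, 107 and 25.2 CPM. Trib3, a pseudokinase gene induced by CHOP, was at 89.8, 132 and 23.9 CPM, a log2 ratio of -0.56 between negative and positive cells. The amino acid transporter genes Slc38a2 (60.4, 26.8 and 45.3 CPM) and Slc7a5 (59.2, 28.0 and 36.9 CPM), the factor Atf5 (59.4, 30.4 and 9.40 CPM) and the glutathione-degrading enzyme gene Chac1 (60.3, 36.9 and 13.6 CPM) were higher in negative cells. Slc38a2 and Slc7a5 were not higher outside clusters 3 and 4, where their log2 ratios were -0.12 and -0.05. Per cell, thinned to 10000 counts, the summed list had a median of 39 counts in negative, 44 in intermediate, 55 in positive and 15 in DMSO cells. Its sum was 4097 CPM in negative and 6009 CPM in positive cells. Gdf15 and Ddit3, whose levels are given above, made up most of that difference, while the median ratio of the list was -0.08.

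Genes of AP-1 and early responses stood lower in negative cells for 8 of 16 and higher for 0 (median -0.56), and outside clusters 3 and 4 lower for 4 and higher for 1 (median -0.15). Beside this list and the p53 list below, 4.78% of all genes were lower and 21.7% higher in all cells. Atf3 was at 9.01 CPM in negative, 41.5 CPM in positive and 156 CPM in DMSO cells, Klf6 at 17.8, 53.1 and 114 CPM, and Zfp36, which encodes a destabiliser of cytokine mRNAs, at 31.8, 93.7 and 162 CPM. Jun was at 50.6, 103 and 282 CPM. Fos and Egr1, the genes most closely tied to ERK pulses, were not among the lower ones in all cells, with 40.5 and 30.9 CPM for Fos and 11.4 and 13.2 CPM for Egr1, both far under the 484 and 135 CPM of DMSO cells. In the shared range the log2 ratio of Egr1 was -0.79. Genes that p53 induces and Cdk inhibitors stood lower for 7 and higher for 1 of 18 (median -0.34), and outside clusters 3 and 4 lower for 3 and higher for 1 (median -0.08). Cdkn1a, which encodes the cell cycle inhibitor p21, was at 602 CPM in negative, 954 CPM in intermediate, 1462 CPM in positive and 841 CPM in DMSO cells. Gadd45a, a growth arrest gene, was at 23.4, 63.2 and 10.7 CPM in negative, positive and DMSO cells, and the death-promoting gene Pmaip1 at 13.2, 31.8 and 33.8 CPM. Mdm2, Bax and Ccng1, direct p53 targets too, were within 1.5-fold.

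Of the 18 genes of the unfolded protein response, which answers misfolding in the secretory pathway, 2 were higher and 2 lower. Of all genes, 21.7% were higher and 4.78% lower, shares that also stand beside the heat shock list below. The chaperone gene Hspa5 (BiP) was at 318 CPM in negative, 686 CPM in positive and 347 CPM in DMSO cells and Herpud1, a gene of protein disposal, at 128, 209.9 and 92.8 CPM. Xbp1, a transcription factor gene of secretory cells, was at 368 CPM in negative, 171 CPM in positive and 176 CPM in DMSO cells, but outside clusters 3 and 4 it was lower in negative cells, at 98.2 and 169 CPM (log2 ratio -0.78). There Hspa5 had a ratio of 0.18. The heat shock genes Hspa1a and Hspa1b were lower in negative cells, with 4 of 15 genes of their list lower and 0 higher. Outside clusters 3 and 4, 2 of this list were higher and 0 lower. None of the 33 nuclear genes of oxidative phosphorylation passed 1.5-fold in either direction (median 0.02). The 13 mitochondrially encoded genes summed to 21208 CPM in negative, 13884 CPM in positive and 24999 CPM in DMSO cells.

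Cholesterol synthesis genes were higher in negative cells in 13 of 21 cases and lower in 0 (median 0.86), with 12 higher in the shared range (median 0.78) and 12 with the median of ratios. Of all genes, 21.7% were higher in all cells, 18% in the shared range and 12.1% with the median of ratios. In the cells outside clusters 3 and 4, 0 were higher and 1 lower (median 0.12), and within cluster 1, 2 were higher and 2 lower. Hmgcs1, an enzyme gene at the start of the pathway, was at 207 CPM in negative, 157 CPM in intermediate, 116 CPM in positive and 113 CPM in DMSO cells. Idi1, which interconverts the isoprenoid units, was at 196, 153, 81.3 and 119 CPM. Of the later steps, Sqle was at 91.6, 65.6, 41.4 and 73.2 CPM and Cyp51 at 227, 157, 94.6 and 124 CPM. Fdps was higher by less than 1.5-fold (1478 CPM in negative and 1080 CPM in positive cells). Srebf2, which encodes the transcription factor of the pathway, was at 114 and 136 CPM. The list had a median of 35 counts per thinned cell in negative, 29 in intermediate, 23 in positive and 25 in DMSO cells.

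Wnt target genes were higher in negative cells in 10 of 11 cases and lower in 0 (median 1.15), and in the shared range in 7 (median 0.68). The list holds 19 genes, of which these 11 had enough counts. Of all genes, 21.7% were higher in all cells and 18% in the shared range. Ascl2, Axin2, Sox9 and Lgr5 reached the minimum of 10 CPM in negative but not in positive cells, so they could not have been counted as lower. Outside clusters 3 and 4, 2 were higher and 2 lower (median 0.21), and within cluster 1 also 2 and 2 (median 0.02). The transcription factor gene Ascl2 was at 27.7 CPM in negative, 15.7 CPM in intermediate, 5.70 CPM in positive and 42.9 CPM in DMSO cells. Axin2, a feedback inhibitor gene, was at 10.9, 5.402, 2.33 and 13.4 CPM, and Sox9, a progenitor factor gene, at 21.6, 12.6, 6.68 and 18.5 CPM. Negative cells were thus nearer to the DMSO cells than positive cells were for these genes. Rnf43, which encodes a ligase that removes Wnt receptors, was at 31.3 CPM in negative, 17.4 CPM in positive and 85.0 CPM in DMSO cells, so negative cells were lower than DMSO cells there. Lgr5, the stem cell receptor gene, was at 13.3 CPM in negative and 4.93 CPM in positive cells, but its log2 ratio was 1.43 in all cells and 0.50 in the shared range. The surface markers Cd44 (159 and 67.1 CPM, DMSO 108 CPM) and Prom1 (184 and 79.4 CPM, DMSO 122 CPM) were higher in negative cells, and Alcam was at 67.9 and 50.4 CPM. Counts per thinned cell over the Wnt list had medians of 6 in negative, 5 in intermediate, 3 in positive and 6 in DMSO cells.

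**Figure D4:**
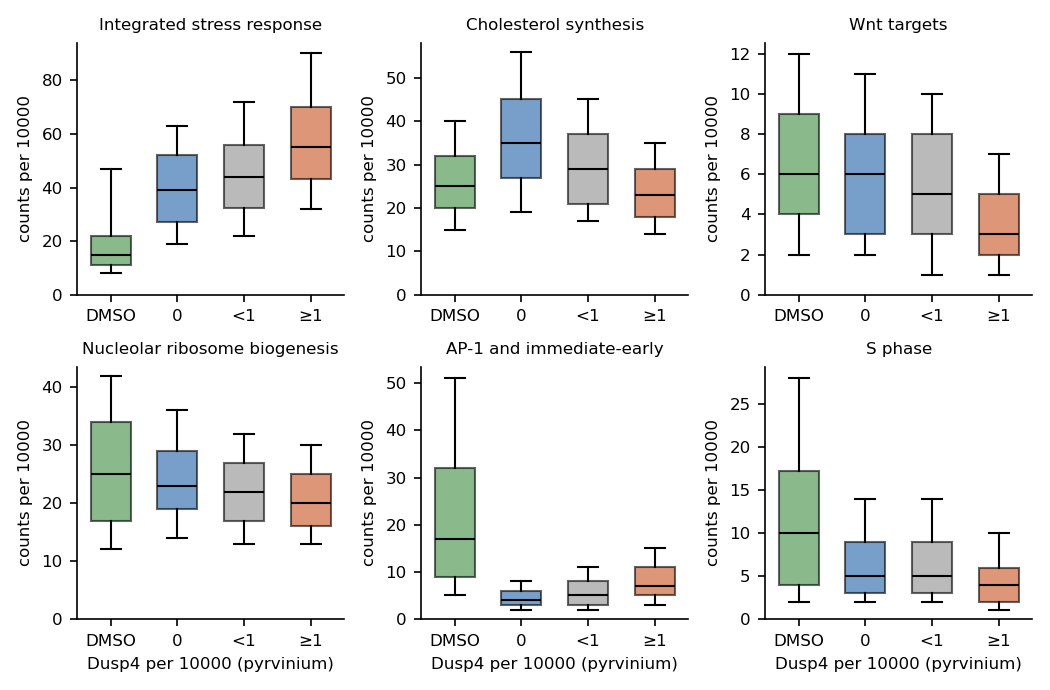
Summed counts of 6 gene lists per cell after thinning to 10000 counts, in DMSO cells and in pyrvinium cells with 0, under 1 and at least 1 Dusp4 count per 10000 (box, quartiles; line, median; whiskers, 10th to 90th percentile of cells). The medians of the stress list are 15, 39, 44 and 55, and those of the cholesterol list 25, 35, 29 and 23. For these lists the boxes of the 3 pyrvinium groups overlap. The stress list holds Gdf15 and Ddit3, which made up most of its difference in summed CPM between negative and positive cells.

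Differentiation genes split between lineages. Of 17 goblet and intestinal genes listed, 4 had enough counts. All 4 were higher in negative cells (median 1.30), and 1 of them outside clusters 3 and 4 (median 0.11). Of all genes, 21.7% were higher and 4.78% lower in all cells. Spink4 was at 13.5 CPM in negative, 1.10 CPM in positive and 14.1 CPM in DMSO cells, and the trefoil gene Tff3 at 17.1, 5.64 and 14.2 CPM. The surface mucous gene Tff1 was at 588 CPM in negative, 258 CPM in positive and 348 CPM in DMSO cells, a log2 ratio of 1.19 that was 0.37 without cells scored as S or G2M. Tff2, a mucous neck cell gene, was at 23.8 and 45.5 CPM, but its log2 ratio turned from -0.94 to 0.28 in the shared range. Of 8 cornified and squamous genes, 0 were higher and 3 lower in all cells, but 6 higher and 0 lower outside clusters 3 and 4 (median 1.05). The squamous-type genes Ly6c1 (14.3 and 52.4 CPM) and Sprr1a (12.7 and 26.0 CPM) were lower in negative cells, Sprr1a by less than 1.5-fold in the shared range. Within cluster 1, Sprr1a was at 95.6 CPM in negative and 27.3 CPM in positive cells. Ratios of the abundant Sprr2a1, Sprr2a2 and Sprr2a3 were between 0.29 and 0.30, and these near-identical copies may share reads. Cnfn, a cornified envelope gene, went from a log2 ratio of 0.11 in all cells to 2.61 in the shared range. Intermediate cells, at 60.0 CPM, held more of it than either group (17.1 and 15.8 CPM).

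The nucleolar and S phase lists had medians above 0 against positive cells and below 0 against DMSO cells (-0.31 and -0.92). Of 23 nucleolar genes of ribosome assembly, 12 were at least 1.5-fold higher and 0 lower (median 0.65), but 5 with the median of ratios and 7 outside clusters 3 and 4. Of all genes, 21.7% were higher and 4.78% lower in all cells. The share higher was 12.1% with the median of ratios and 11.4% outside clusters 3 and 4. Nop2, an rRNA methyltransferase gene, was at 23.8 CPM in negative, 10.8 CPM in positive and 36.2 CPM in DMSO cells, and Myc, a driver of this programme, at 38.5, 19.96 and 67.7 CPM. Of 25 S phase genes, 11 were higher and 0 lower (median 0.38). In cells outside clusters 3 and 4, 14 were higher and 1 lower. Mitotic cluster 2 held 12 of these 42 negative cells and 33 of these 351 positive cells. Within cluster 1, 3 S phase genes were higher and 7 lower (median -0.09), and within cluster 2, 11 and 0 (median 0.55). Of all genes, 16.7% were higher and 12.1% lower within cluster 1, and 14.1% and 27.4% within cluster 2. With the median of ratios 6 S phase genes were higher, and without cells scored as S or G2M 7 were higher and 2 lower. Without those cells 21.2% of all genes were higher and 5.70% lower, so the S phase counts there were near those of all genes. The flap endonuclease gene Fen1 was at 16.2 CPM in negative, 4.99 CPM in positive and 53.6 CPM in DMSO cells, and Tyms, which makes thymidylate, at 70.6, 33.1 and 130.3 CPM. Of 32 G2M genes, 3 were higher and 2 lower (median 0.00).

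**Figure D5:**
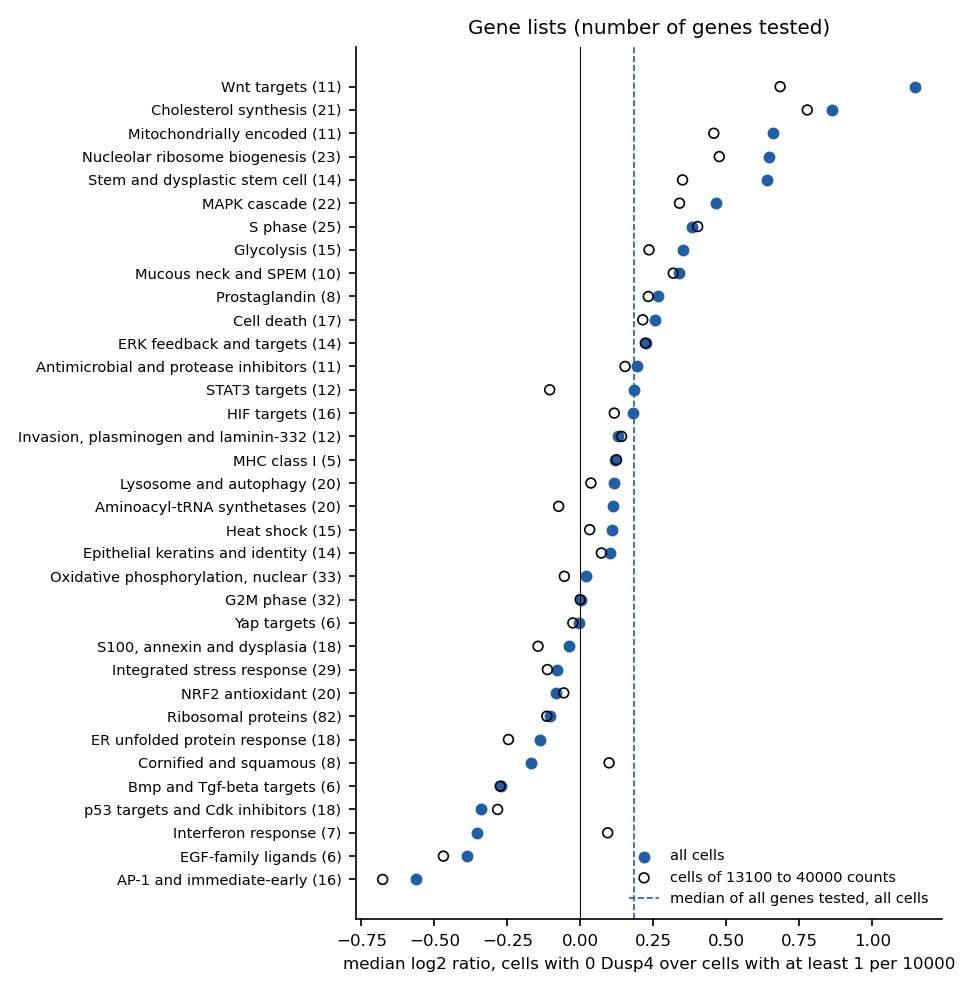
Median log2 ratio of Dusp4-negative over Dusp4-positive cells for each gene list with at least 5 genes compared (number in brackets), in all cells (filled) and in the shared range of up to 40000 counts (open). The dashed line is the median of all genes, 0.18; Wnt targets are highest at 1.15 and AP-1 genes lowest at -0.56.

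The Dusp4-negative cells were not alike. The 110 in cluster 3 and the 93 in cluster 4, described here by named genes of which some helped to build the clusters, shared low Gdf15 (126 and 150.1 CPM) and high Cldn2 (151 and 106 CPM). In cluster 3 the negative cells held Tff1 at 918 CPM, Krt19, a keratin gene of simple epithelia, at 1409 CPM and Ccnd1 at 315 CPM, against 184, 460 and 74.2 CPM in cluster 4. The tissue factor gene F3 was at 133 and 16.3 CPM. The negative cells of cluster 4 in turn had more Muc1, a membrane mucin gene, with 307 against 104 CPM, and more Xbp1, with 513 against 299 CPM. They also had more Mmp7 (279.9 and 16.7 CPM) and more of the antigen presentation gene H2-D1 (554 and 275 CPM). Cholesterol synthesis genes summed to 4473 CPM in the negative cells of cluster 3 and 3086 CPM in those of cluster 4, and S phase genes to 869 and 404 CPM. Ddit3 was at 45.9 CPM in cluster 3 and 109.9 CPM in cluster 4. The 25 negative cells of cluster 1 and the 12 of cluster 2 had Gdf15 at 531 and 730.4 CPM and Cldn2 at 5.85 and 59.2 CPM. On these genes the cells of cluster 1 were unlike the negative cells of clusters 3 and 4.

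Set against the 1204 DMSO cells, which both groups share as reference, 549 of 7025 genes (7.81%) were at least 1.5-fold higher and 590 (8.4%) lower in Dusp4-negative cells. For Dusp4-positive cells the numbers were 643 (9.38%) and 1753 (25.6%) of 6858. These counts are by CPM, and no other scaling was tried against DMSO cells. Over the genes compared between negative and positive cells, the median log2 ratio to DMSO was 0.07 in negative and -0.13 in positive cells. List by list, the stress response had a median log2 ratio to DMSO of 0.88 in negative and 0.95 in positive cells. Cholesterol synthesis was at 0.43 and -0.39, Wnt targets at -0.30 and -1.47, and AP-1 genes at -1.97 and -1.09. Hypoxia (HIF) targets were at -1.14 and -1.16, so on this list both groups lay below the DMSO cells.

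The DMSO library, which the choice of cells did not use, offers the same comparison on a small scale. There 907 cells (75.3%) held 0 Dusp4 counts and 31 (2.57%, 690992 counts in sum) at least 1 per 10000, with median depths of 22140 and 19868 counts. Of 7363 genes, 2169 (29.5%) were at least 1.5-fold higher in the cells with 0 counts and 1542 (20.9%) lower. Of the 1505 genes higher in negative pyrvinium cells, 1372 could be compared, and 44.2% were higher and 10.3% lower there. Of the 331 lower genes, 278 could be compared, and 53.6% were lower and 9.71% higher. Cldn2 was at 75.7 CPM in the DMSO cells with 0 Dusp4 counts and 11.6 CPM (8 counts) in those with Dusp4, and Ddit3 at 29.4 and 234 CPM. Sat1 (137 and 441 CPM), Cldn4 (389 and 1004 CPM) and Cdkn1a (799 and 1848 CPM) were lower without Dusp4 in this library too. Wnt targets were higher in 6 of 11 cases and lower in 0. On the cholesterol list the DMSO library had 6 of 21 genes higher, 2 lower and a median of 0.14. For the stress response, 17 of 28 genes were lower and 0 higher. Hypoxia (HIF) targets were lower in 16 of 16 cases (median -1.84), against 4 higher and 3 lower among the pyrvinium cells (median 0.18). Glycolysis genes were lower in 12 of 15 cases (median -1.21), against 2 higher and 1 lower (median 0.35). Of 33 nuclear genes of oxidative phosphorylation 18 were higher, against 0 in pyrvinium cells. S phase (22 of 24 higher) and nucleolar genes (20 of 22) went the same way in both libraries.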

How the data were processed

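Single-cell RNA libraries of DMSO-treated and pyrvinium-treated organoids were made with PIPseq capture and the T2 kit, per the labels' protocols. Per the submitters' processing notes, Partek and the build GRCm39 were used. Aligner, counting tool and barcode filter: not given in the sources used here. The deposited matrices hold whole-number counts per gene and barcode over 32227 genes, not normalized. Whether a count is a molecule is not stated. Where 27 symbols are shared by several genes, such as Ddit3, the lowest Ensembl number was used.

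Counts were summed per group of cells and scaled to a common total (CPM). Genes with at least 10 CPM in either group were compared. A gene that reached 10 CPM in 1 group alone could therefore only be higher in that group. Ratios have exact conditional binomial 95% intervals, levels exact Poisson and shares Clopper-Pearson intervals. A gene was called higher or lower at 1.5-fold. No test was run, as each treatment has 1 library. Kept cells of the pyrvinium library summed to 37046673 counts (median 31517 per cell) and of the DMSO library to 35545412. Cells were thinned at random to 10000 counts for shares and list counts. Pyrvinium cells were clustered without Dusp4 (2000 variable genes, 30 components, 15 neighbours, Leiden resolution 0.5, scanpy 1.11.5). Clusters are called by number. S and G2M calls compare cell cycle genes with genes of like expression. Doublets were kept in the main setting. The computation was tested on simulated counts (Python 3.11.15, scipy 1.17.1).

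Named are 15 genes of highest and 15 of lowest ratio, ranked by the interval bound nearest 0 in all cells and in cells of up to 40000 counts, among genes with at least 20 CPM and without mitochondrial, ribosomal protein and unnamed models. Up to 4 genes of each list with the largest ratio and a fixed set were added. Not every gene of the rule is named, and some results are not reported here. Genes outside the rule (among them Asns, Cth, Atf5, Chac1, Ppp1r15a, Hmgcs1, Sqle, Fdps, Srebf2, Rnf43, Fos, Egr1, Jun, Mapk3, Mdm2, Bax and Ccng1) were chosen after their values were seen. The members and gene lists were chosen with earlier results of these data known.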

Additional observations from a re-analysis of the deposited data

Results flagged for a closer look

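With 1 library per treatment, genes named by the rule were compared between the libraries by direction alone, and the difference was not tested. Of 181 such genes, 74 were at least 1.5-fold apart between cells with 0 Dusp4 counts and Dusp4-positive cells in both libraries, with counting intervals on 1 side of 0. In 57 the direction was the same and in 17 it was opposite. The DMSO values rest on 31 Dusp4-positive cells. Tff1 had a log2 ratio of -1.72 under DMSO and 1.19 under pyrvinium. F3 was at -2.02 and 1.26, and Krt19 at -0.70 and 0.78. Metabolic genes among them were Hk2 (-1.67 and 0.61), Egln1 (-1.51 and 1.27), Slc7a5 (-1.25 and 1.08) and Tlcd3a (-0.99 and 1.85). Receptor genes were Erbb2 (-1.08 and 1.29), Met (-1.15 and 0.89) and Il6st (-1.26 and 0.82). Hjurp was at -1.20 and 0.71, and Sel1l at -0.95 and 0.59. In the other direction, higher without Dusp4 under DMSO, were Itln1 (3.40 and -2.12), Tff2 (2.43 and -0.94, the latter 0.28 in cells of up to 40000 counts), Cryab (0.92 and -0.91), Mmp7 (0.68 and -1.45) and Ly6c1 (0.66 and -1.87). Itln1 had 2 and Tff2 4 counts in the 31 cells.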

How the results depend on the processing

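No paired analysis was possible because each treatment has 1 library. Against 1505 higher and 331 lower genes in all cells, the median of ratios gave 826 and 679, no minimum CPM 3398 and 1108, and comparison cells with any Dusp4 count 891 higher. With the rule applied to thinned counts (435 and 419 cells) they were 550 and 134. Against 1271 and 376 in cells of up to 40000 counts, no minimum gave 2319 and 765, any Dusp4 count 250 lower and the rule on thinned counts 692 and 189. Cells of up to 20000 counts gave 586 lower, and cells of 30000 to 40000 counts (26 and 41 cells) 1996 and 865. Why these numbers moved was not tested, except that more genes are compared with no minimum. The other planned settings (depth thresholds, mean over cells, scaling without mitochondrial and ribosomal genes, free RNA, doublets, cell cycle, 2 per 10000 for comparison cells) stayed within 1.5 times the main numbers. Of 86 genes past 1.5-fold, Tff2 alone turned direction, to 0.28 in cells of up to 40000 counts, and 79 stayed past it there. Ratios within clusters of at least 30 cells of each group could not be computed, as no cluster held them. In their place, chosen after seeing the data, cluster 1 (25 and 202 cells) gave 1067 higher and 776 lower genes and cluster 2 (12 and 33) 956 and 1864. Clusters 3 and 4 with any Dusp4 count gave 38 and 36, and all cells outside them 724 and 666. Of the 86 genes, 30, 16, 33 and 28 had the other sign in these settings, and 26, 48, 3 and 33 stayed past 1.5-fold. Past 1.5-fold in the other direction were 12, 8, 3 and 7. The 3 within clusters 3 and 4 were Atf3, Hspa1a and Mmp7. Depth limits the choice of cells: the share with 0 Dusp4 counts fell from 38.2% in the shallowest to 21.8% in the deepest class.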
